A study of Mus musculus with 23 samples.

Results

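The neuronal genes described here were followed across 4 treatment groups of a study of mouse cortex: the cytoskeletal genes Tubb3, Mapt, Nefl and Fscn1, the nuclear identity marker Rbfox3, the surface receptor component Lingo1, the vesicle genes Syp and Rab6b, and the secreted pentraxin Nptx1. They were chosen by name, as the 9 of 770 panel genes whose symbol is on this list. RNA was measured on the nCounter Mouse Neuroinflammation Panel of NanoString, which counts RNA molecules directly by bar-coded probes, with no amplification step. The 23 mice were WT animals of strain B6FVB, 12 wk old, from the line CamKIIα-TTA/tetO-APP102 x FVB, that is, nontransgenic siblings of the tTA;APP animals. Dox+LPS mice (n = 6, 3 males and 3 females) and Dox mice (n = 4, 1 male and 3 females) were fed dox in the chow (100 mg/kg) between postnatal day 3 and 6 wk of age, and were then without it for 6 wk. LPS mice (n = 5, 3 males and 2 females) and Untreated mice (n = 8, 6 males and 2 females) had no dox. Dox+LPS and LPS mice were injected with 2 mg/kg LPS, a bacterial cell wall component that sets off acute inflammation, and the cortex was collected 18 h later. By the study's methods, Dox and Untreated mice were given saline and, unlike the mice given LPS, had not been through stool sampling, and dox reached the pups through the dam's chow until weaning.

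Neurons are kept in shape by microtubules, which are built of tubulin and bound by tau, by neurofilaments, which set the caliber of axons, and by actin bundles. Synaptic vesicles carry transmitter to the terminal and are marked by synaptophysin. Transcripts of such genes are commonly used as markers of neurons in brain tissue. In tissue RNA of this kind, fewer neurons and less RNA per neuron cannot be told apart.

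Total panel counts lay between 645971 and 804471 per mouse. All 9 genes exceeded background (negative control probes, mean plus 2 SD) in all 23 mice, with raw counts from 1570 to 10653. Counting error alone therefore amounted to 1.02% to 2.35% of a value, whereas the spread between mice of a group was 3.19% to 11.8% (CV). Counts are given after upper quartile scaling to the mean library, and counts of different probes are not compared with each other. The 11 mice given LPS shared 1 cartridge and the 12 given saline another. An effect of the cartridge therefore cannot be told apart from that of LPS in any comparison of LPS-injected with saline-injected mice. Dox against Untreated and Dox+LPS against LPS each lay within 1 cartridge. The labels do not state whether mice shared a litter or cage.

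With upper quartile scaling, most of these genes were lower in LPS-injected than in saline-injected mice, in dox-treated and dox-untreated cortex. With adjusted p under 0.05 as the threshold, 7 of 9 genes fell in LPS against Untreated mice, and 8 of 9 fell in Dox+LPS against Dox mice. The panel as a whole moved a great deal: 51.9% of the 770 genes passed the same threshold in LPS against Untreated (29.1% lower and 22.9% higher), and 56% in Dox+LPS against Dox (31.3% lower and 24.7% higher). This split depended on the scaling. Scaled to positive controls, 80 genes were lower (10.4%) and 215 higher in LPS against Untreated, and scaled to the 13 housekeeping genes, 75 were lower (9.74%) and 246 higher in Dox+LPS against Dox. The median log2 fold change of the 9 genes was -0.29 in LPS against Untreated and -0.32 in Dox+LPS against Dox, beside -0.04 and -0.07 over all genes in the same order. Most changes were small. With an absolute log2 fold change above 0.5 required as well, 1 gene remained in LPS against Untreated (Lingo1) and 2 in Dox+LPS against Dox (Lingo1 and Tubb3). The shares of all genes that were lower by this stricter rule were 5.97% and 7.01%, again in that order. With upper quartile scaling, among the 86 genes with mean counts in the range of these 9 (the 9 included), 61.6% fell in LPS against Untreated and 79.1% in Dox+LPS against Dox.

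**Figure D1:**
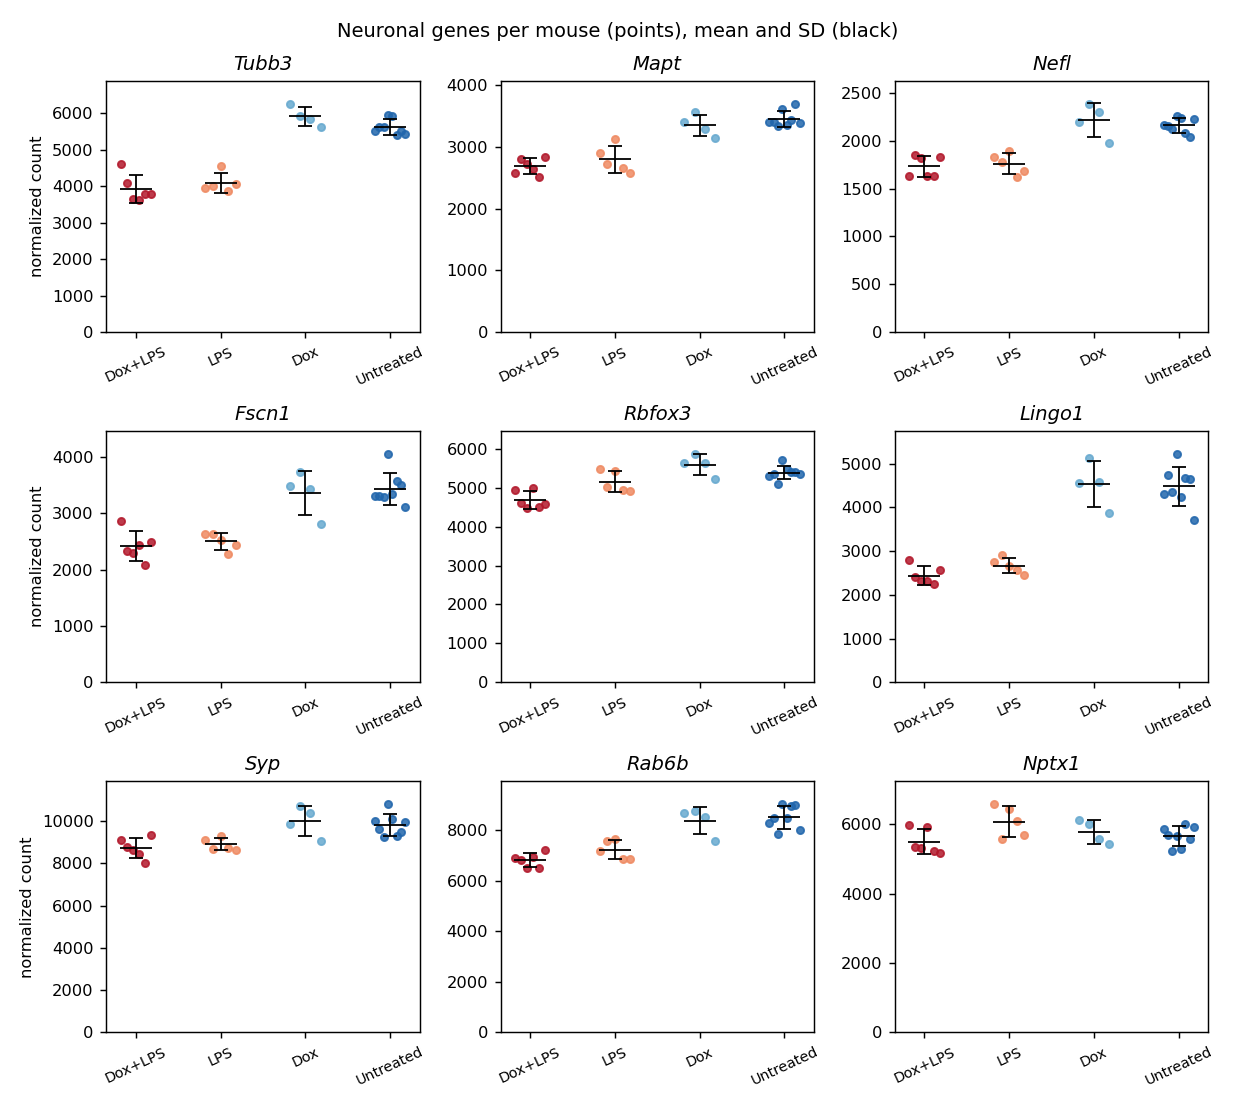
Normalized counts (upper quartile scaling, linear axis from 0) of the 9 neuronal genes, with 1 point per mouse and the mean and SD in black, for Dox+LPS (n = 6), LPS (n = 5), Dox (n = 4) and Untreated mice (n = 8). For Lingo1, the 11 LPS-injected mice sit between 2241 and 2903, all below the 12 saline-injected mice, at 3705 to 5225. For Nptx1, the 4 groups overlap.

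Lingo1 had the largest change. It encodes a leucine-rich repeat membrane protein of neurons and oligodendrocytes, known as a partner of the Nogo receptor and as a brake on axon growth and myelination. Normalized counts were 2762, 2903, 2669, 2572 and 2447 in LPS mice, against a lowest of 3705, a median of 4508 and a highest of 5225 in Untreated mice. In dox-treated mice they were 2241 (lowest), 2363 (median) and 2798 (highest) with LPS, against 4564, 5131, 4585 and 3866 in Dox mice. The groups did not overlap in either comparison, as was the case for 26.8% of panel genes in LPS against Untreated and for 40.1% in Dox+LPS against Dox. The level was 40.5% lower in LPS than in Untreated mice (log2 fold change -0.75, SE 0.07, adjusted p = 7.85e-09, edgeR quasi-likelihood test) and 46.2% lower in Dox+LPS than in Dox mice (-0.89, SE 0.08, adjusted p = 2.48e-09). Only 2.73% of panel genes stood below Lingo1 in the order of log2 fold changes in LPS against Untreated, and 2.47% in Dox+LPS against Dox.

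Tubb3 encodes the class III beta-tubulin that marks neuronal microtubules. Its normalized counts were 3954, 4009, 4540, 3872 and 4049 in LPS mice, against 5408 (lowest), 5566 (median) and 5949 (highest) in Untreated mice. In dox-treated mice, the Dox+LPS values were 3606 (lowest), 3774 (median) and 4615 (highest), against 6254, 5927, 5844 and 5633 in Dox mice. Every LPS-injected mouse was below every saline-injected mouse. The level fell by 0.46 on the log2 scale in LPS against Untreated (SE 0.05, 27.3% lower, adjusted p = 5.68e-08, edgeR) and by 0.59 in Dox+LPS against Dox (SE 0.06, 33.8% lower, adjusted p = 5.57e-09).

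Fscn1 encodes fascin, which bundles actin filaments. Normalized counts were 2638, 2632, 2520, 2283 and 2438 in LPS mice, all below the 3113 (lowest), 3327 (median) and 4053 (highest) of Untreated mice. Dox+LPS mice had 2086 (lowest), 2380 (median) and 2868 (highest), against 3490, 3735, 3426 and 2806 in Dox mice, where the lowest Dox mouse lay just under the highest Dox+LPS mouse. The log2 fold change was -0.46 in LPS against Untreated (SE 0.07, adjusted p = 1e-05, edgeR) and -0.48 in Dox+LPS against Dox (SE 0.08, adjusted p = 2.02e-05). These correspond to levels 27.2% and 28.1% lower.

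Mapt encodes tau, which binds and stabilizes axonal microtubules. It had 2901, 2719, 3125, 2660 and 2572 normalized counts in LPS mice, against 3343 (lowest), 3400 (median) and 3694 (highest) in Untreated mice. Dox+LPS mice had 2505 (lowest), 2680 (median) and 2837 (highest), against 3393, 3559, 3283 and 3147 in Dox mice. Neither pair of groups overlapped, although the differences of 19.1% and 19.9% were far smaller than those of Lingo1. The adjusted p was 3.56e-06 for the log2 fold change of -0.30 in LPS against Untreated and 8.27e-06 for that of -0.32 in Dox+LPS against Dox (SE 0.04 and 0.05, edgeR).

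Nefl encodes the light chain of neurofilaments, a protein measured in blood as a sign of axonal damage. Its normalized counts were 1833, 1775, 1893, 1623 and 1685 in LPS mice, against 2041 (lowest), 2161 (median) and 2255 (highest) in Untreated mice. Dox+LPS mice had 1631 (lowest), 1727 (median) and 1853 (highest), against 2201, 2386, 2299 and 1972 in Dox mice. The LPS-injected mice were again below all saline-injected mice, by 18.5% in LPS against Untreated (log2 fold change -0.29, SE 0.05, adjusted p = 1.85e-05, edgeR) and by 21.7% in Dox+LPS against Dox (-0.35, SE 0.05, adjusted p = 7.2e-06).

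Rab6b, a brain-enriched small GTPase of Golgi and vesicle transport, fell less. Its normalized counts were 7192, 7570, 7647, 6845 and 6855 in LPS mice, against 7842 (lowest), 8493 (median) and 9032 (highest) in Untreated mice. Dox+LPS mice had 6506 (lowest), 6849 (median) and 7202 (highest), against 8673, 8765, 8508 and 7581 in Dox mice. The groups did not overlap in either comparison, with 15.2% lower levels in LPS than in Untreated mice (log2 fold change -0.24, SE 0.04, adjusted p = 5.63e-05, edgeR) and 18.7% lower levels in Dox+LPS than in Dox mice (-0.30, SE 0.05, adjusted p = 1.17e-05).

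Syp encodes synaptophysin, a membrane protein of synaptic vesicles. Normalized counts of 9110, 8687, 9285, 8745 and 8645 in LPS mice overlapped with the 9240 (lowest), 9799 (median) and 10803 (highest) of Untreated mice. Dox+LPS mice, at 8036 (lowest), 8698 (median) and 9321 (highest), overlapped with the 9856, 10696, 10401 and 9058 of Dox mice. The log2 fold changes of -0.14 (SE 0.04, adjusted p = 0.00718) in LPS against Untreated and -0.20 (SE 0.05, adjusted p = 0.00112) in Dox+LPS against Dox passed the threshold in edgeR, at 9.4% and 12.9% lower levels.

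Rbfox3 encodes NeuN, the splicing factor used to stain neuronal nuclei. Its normalized counts were 5487, 5021, 5424, 4949 and 4917 in LPS mice, which overlapped with 5095 (lowest), 5376 (median) and 5706 (highest) in Untreated mice, and the log2 fold change of -0.06 (95% interval -0.14 to 0.01) did not pass the threshold (adjusted p = 0.169, edgeR). Dox+LPS mice, at 4476 (lowest), 4590 (median) and 4990 (highest), were all below the 5643, 5867, 5635 and 5233 of Dox mice (log2 fold change -0.26, SE 0.04, adjusted p = 1.55e-05). The difference between these 2 changes, the interaction of LPS and dox, was -0.19 on the log2 scale (SE 0.06). It did not pass the adjustment over all genes (unadjusted p = 0.002, adjusted p = 0.157, edgeR), and the adjusted p lay between 0.0807 and 0.859 over 41 alternatives.

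Nptx1, a secreted pentraxin that helps to cluster glutamate receptors at synapses, was the exception. LPS mice had 6586, 5579, 6445, 6112 and 5698 normalized counts, and Untreated mice 5229 (lowest), 5667 (median) and 6025 (highest). Dox+LPS mice had 5167 (lowest), 5332 (median) and 5979 (highest), against 6127, 6023, 5569 and 5432 in Dox mice. Both pairs of groups overlapped. The log2 fold change was 0.10 (95% interval 0.00 to 0.20, unadjusted p = 0.041, adjusted p = 0.0755) in LPS against Untreated and -0.07 (95% interval -0.19 to 0.04, adjusted p = 0.261) in Dox+LPS against Dox, and neither passed the threshold in edgeR.

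**Figure D2:**
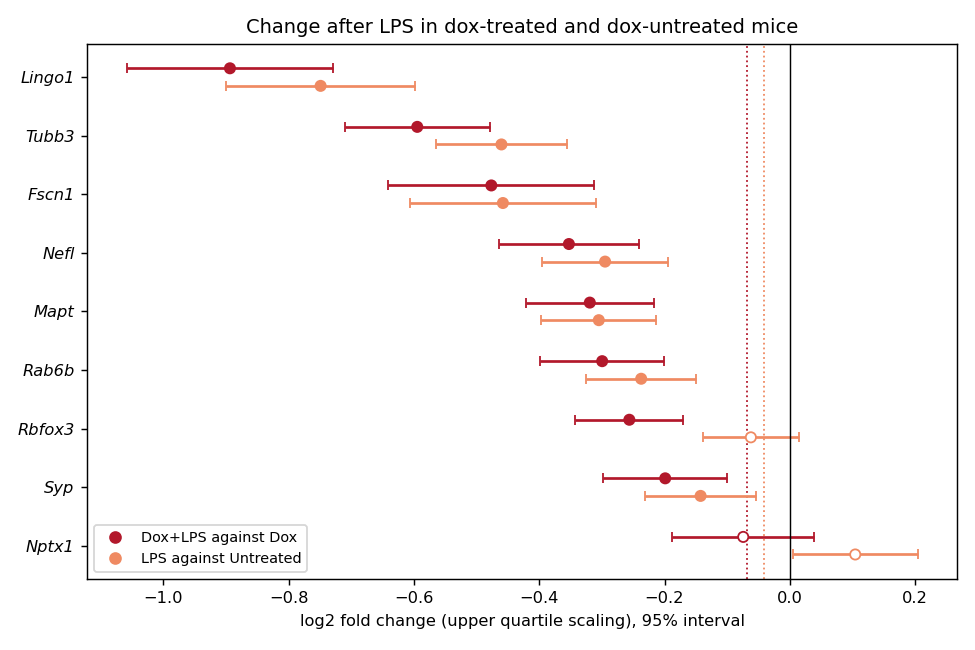
Log2 fold change with its 95% interval for each of the 9 genes, in Dox+LPS against Dox (red) and LPS against Untreated (orange). Filled points have an adjusted p under 0.05 (edgeR quasi-likelihood test over 770 genes), and the dotted lines mark the medians of all genes, -0.07 and -0.04. The order of the genes runs from Lingo1, at -0.89 and -0.75, to Nptx1, at -0.07 and 0.10.

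The upstream sequences of the genes that changed most (Lingo1, Tubb3, Fscn1) and of Rbfox3, which moved less, are given here because the first 3 fell together. Each is the run of 250 bases before the annotated start in RefSeq (GRCm38.p6), on the strand of the gene. Of the 9 genes, 6 had an entry in the promoter table, and Mapt, Nefl and Nptx1 did not. Capitals mark matches, on either strand, to the CRE (TGACGTCA), the TATA box (TATAAA) or the GC box (GGGCGG). The EGR motif (GCGTGGGCG) was searched in the same way.
Lingo1 (chr9:56796311-56796560, minus strand, 1 of 2 annotated starts): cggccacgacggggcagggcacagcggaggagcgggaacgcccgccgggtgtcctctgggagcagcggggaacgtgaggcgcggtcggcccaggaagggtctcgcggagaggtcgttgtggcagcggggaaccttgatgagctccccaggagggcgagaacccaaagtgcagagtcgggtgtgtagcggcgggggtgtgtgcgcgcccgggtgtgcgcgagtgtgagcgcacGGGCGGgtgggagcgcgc
Tubb3 (chr8:123411303-123411552, plus strand): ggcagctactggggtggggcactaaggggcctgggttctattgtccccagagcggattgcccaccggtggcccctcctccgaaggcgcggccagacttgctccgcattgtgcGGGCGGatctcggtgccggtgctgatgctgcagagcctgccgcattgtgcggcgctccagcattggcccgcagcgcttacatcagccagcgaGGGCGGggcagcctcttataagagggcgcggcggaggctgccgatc
Fscn1 (chr5:142960105-142960354, plus strand): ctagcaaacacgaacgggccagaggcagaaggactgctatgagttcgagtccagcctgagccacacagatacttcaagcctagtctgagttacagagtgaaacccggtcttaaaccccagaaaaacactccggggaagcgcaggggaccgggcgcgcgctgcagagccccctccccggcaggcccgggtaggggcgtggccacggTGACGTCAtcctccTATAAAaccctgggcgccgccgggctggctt
Rbfox3 (chr11:118761042-118761291, minus strand): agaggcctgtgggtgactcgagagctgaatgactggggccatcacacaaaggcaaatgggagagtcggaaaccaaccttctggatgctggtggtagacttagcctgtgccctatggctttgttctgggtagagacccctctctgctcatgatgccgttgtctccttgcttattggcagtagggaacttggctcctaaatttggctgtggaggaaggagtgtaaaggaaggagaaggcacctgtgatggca
The Fscn1 window held a CRE 45 to 38 bases before the start and a TATA box 31 to 26 bases before it. Over all 32851 promoter windows of 250 bases in the table, 1.55% held this CRE and 12.4% this TATA box. The Tubb3 window held 2 GC boxes, and the printed Lingo1 window held 1, 18 to 13 bases before the start. The windows of Syp and Rab6b, which changed less, held 2 and 1, and the other Lingo1 window 1. The GC box was present in 32.7% of all windows. None of the letters searched was found in the Rbfox3 window. The EGR motif, held by 0.536% of all windows, was in none of the 7 windows of these 6 genes. A match is a description of the letters, and binding was not measured.

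The small shifts depended on how the libraries were scaled. A scaling multiplies all genes of a library by 1 factor, and so by construction it hardly alters the distance of a gene from the median gene. Before any scaling, the positive control probes differed by 0.00 on the log2 scale between LPS-injected and saline-injected mice, whereas the upper quartile factor was 0.12 larger in LPS-injected mice. Upper quartile scaling thus set all genes lower in LPS-injected mice than scaling to total counts or to positive controls. The median gene of the panel, depending on the scaling, had a log2 fold change between -0.04 and 0.08 in LPS against Untreated and between -0.07 and 0.12 in Dox+LPS against Dox. Relative to that median, the log2 fold changes of the 9 genes accordingly varied by at most 0.0065 over 7 scalings (upper quartile, TMM, RLE, total count, 13 housekeeping genes, 11 housekeeping genes without Gusb and the dim Asb10, and positive controls). In LPS against Untreated, Lingo1 stood 0.70 to 0.71 below the median gene, Tubb3 0.42 below it, and Nptx1 0.14 to 0.15 above it.

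Lingo1, Tubb3 and Fscn1 fell under all 7 scalings in both comparisons. In LPS against Untreated, Lingo1 ranged from -0.75 to -0.62, Tubb3 from -0.46 to -0.34 and Fscn1 from -0.46 to -0.33. In Dox+LPS against Dox, the ranges were -0.89 to -0.70 for Lingo1, -0.59 to -0.41 for Tubb3 and -0.48 to -0.29 for Fscn1. Mapt and Nefl passed the threshold under 7 of 7 scalings in LPS against Untreated and under 6 of 7 in Dox+LPS against Dox, where the 13 housekeeping genes gave adjusted p of 0.0515 and 0.0524. Rab6b fell under 6 of 7 scalings in LPS against Untreated (-0.12 with positive controls, adjusted p = 0.145) and under 7 of 7 in Dox+LPS against Dox. Syp passed only under upper quartile, TMM and RLE scaling in both comparisons, and its log2 fold change came to -0.02 in LPS against Untreated and -0.01 in Dox+LPS against Dox at the other end of the range. Rbfox3 fell under 5 of 7 scalings in Dox+LPS against Dox and passed under none in LPS against Untreated, where its sign changed (-0.06 to 0.06). Nptx1 passed the threshold as higher in LPS than in Untreated mice under the 6 other scalings (0.13 to 0.23), and passed in neither direction in Dox+LPS against Dox (-0.07 to 0.12).

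**Figure D3:**
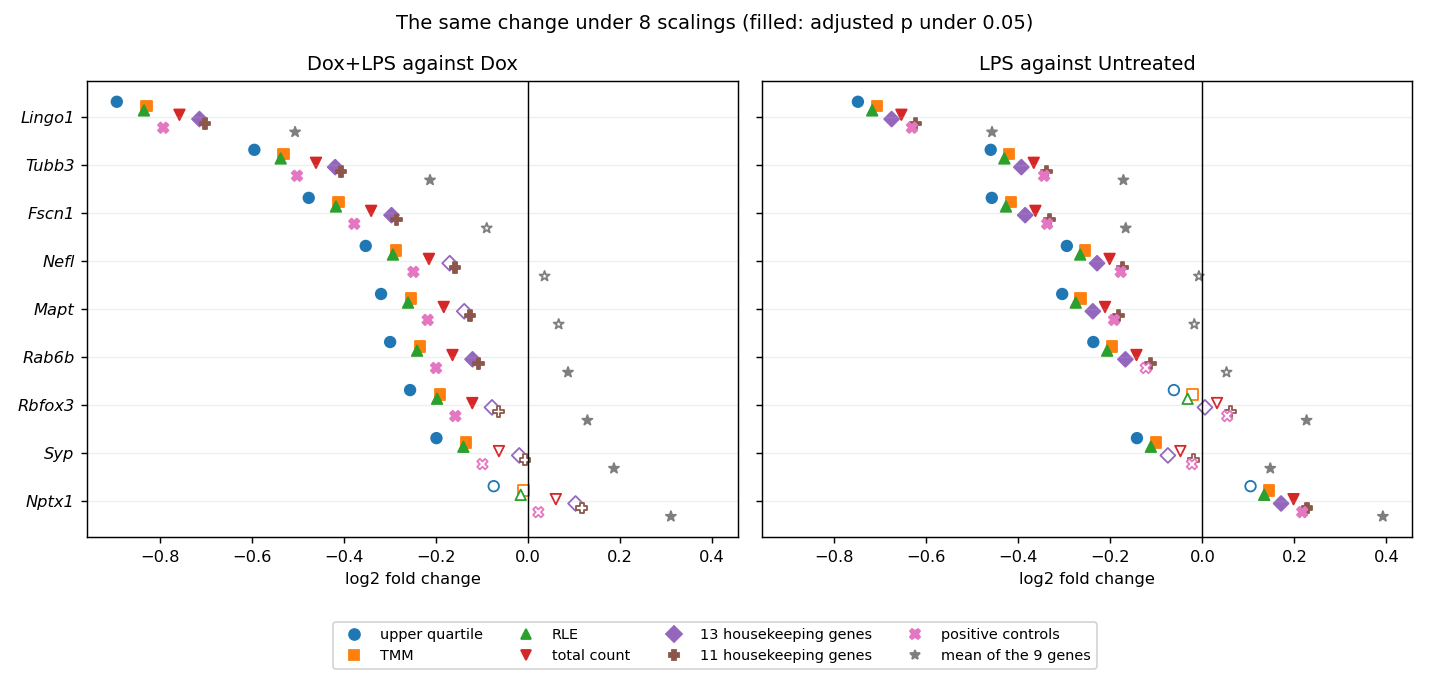
Log2 fold change of each gene under 8 scalings, in Dox+LPS against Dox (left) and LPS against Untreated (right), with filled markers for an adjusted p under 0.05. The first 7 scalings shift all genes by a common amount, and Lingo1, Tubb3 and Fscn1 stay below 0 in each of them. Scaling to the mean of the 9 genes (stars) shows each gene relative to the set, with Lingo1 at -0.51 and -0.46 and Nptx1 at 0.31 and 0.39.

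Ratios between genes within 1 library need no scaling factor. Each count was therefore divided by the geometric mean of the 9 genes in the same mouse. For Lingo1 this ratio was 0.617 to 0.692 in Dox+LPS mice, 0.629 to 0.723 in LPS mice, 0.861 to 0.972 in Dox mice and 0.782 to 0.988 in Untreated mice. LPS-injected and saline-injected mice did not overlap. The ratio of Tubb3 also fell, to 0.953 to 1.07 in LPS mice against 1.09 to 1.21 in Untreated mice, and overlapped between Dox+LPS mice (0.957 to 1.14) and Dox mice (1.12 to 1.25).

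Rbfox3, Nptx1 and Syp moved the other way relative to the set. The mean of the set includes the genes that fell most, so a gene that fell less rises against it. The Rbfox3 ratio was 1.18 to 1.32 in Dox+LPS mice, 1.25 to 1.32 in LPS mice, 1.11 to 1.17 in Dox mice and 1.08 to 1.13 in Untreated mice. For Nptx1 it was 1.33 to 1.57 in Dox+LPS mice, 1.39 to 1.60 in LPS mice, 1.12 to 1.21 in Dox mice and 1.07 to 1.25 in Untreated mice. For Syp it was 2.24 to 2.40 in Dox+LPS mice, 2.16 to 2.28 in LPS mice, 1.95 to 2.08 in Dox mice and 1.88 to 2.11 in Untreated mice. LPS-injected mice lay above all saline-injected mice for each of these genes. How many panel genes would do so against the same mean is not given here. The count of Lingo1 divided by that of Nptx1 was 0.392 to 0.499 in Dox+LPS mice and 0.414 to 0.520 in LPS mice, against 0.712 to 0.852 in Dox mice and 0.624 to 0.924 in Untreated mice. This pair was picked after its values were seen and was not tested.

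Fitted with the mean of the 9 genes as the scale, Lingo1 (-0.46, adjusted p = 2.69e-08), Tubb3 (-0.17, adjusted p = 0.0011) and Fscn1 (-0.17, adjusted p = 0.0024) fell and Nptx1 (0.39, adjusted p = 5.5e-08), Rbfox3 (0.23, adjusted p = 1.27e-07) and Syp (0.15, adjusted p = 8.79e-05) rose relative to the set in LPS against Untreated (edgeR). In Dox+LPS against Dox, Lingo1 (-0.51) and Tubb3 (-0.21) fell and Nptx1 (0.31), Syp (0.19), Rbfox3 (0.13) and Rab6b (0.09) rose relative to it (largest adjusted p = 0.0166). The 9 genes therefore did not change by an equal factor. The rises hold against the set only, and the share of all panel genes passing on this scale is not given. Relative to the median panel gene, Rbfox3 was at -0.02, Syp at -0.10 and Nptx1 at 0.14 to 0.15 in LPS against Untreated. In Dox+LPS against Dox, Syp was at -0.13, Rbfox3 at -0.19, Rab6b at -0.23 and Nptx1 at -0.0059 to -0.0041. Together the 9 genes made up 5.31% to 5.81% of the panel counts in Dox+LPS mice and 5.70% to 6.07% in LPS mice, against 6.04% to 6.62% in Dox mice and 6.28% to 6.65% in Untreated mice.

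**Figure D4:**
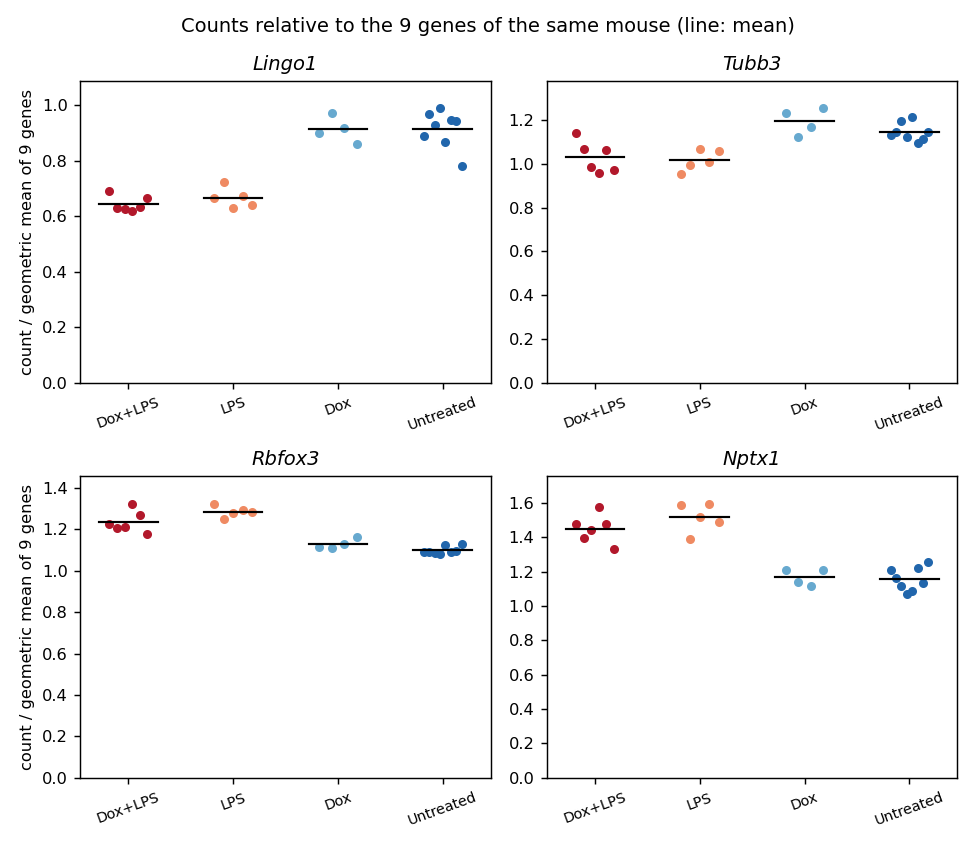
Count of Lingo1, Tubb3, Rbfox3 and Nptx1 divided by the geometric mean of the 9 genes in the same mouse (no unit, linear axis from 0), with 1 point per mouse and a line at the mean of each group. Lingo1 and Tubb3 have lower ratios and Rbfox3 and Nptx1 higher ratios in Dox+LPS and LPS mice than in Dox and Untreated mice. The values of Dox+LPS and Dox mice overlap for Tubb3.

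Early dox by itself left these genes within the spread of the groups. In Dox against Untreated mice, log2 fold changes lay between -0.05 and 0.07, no gene passed the threshold, and the lowest adjusted p was 0.977. None of the 770 panel genes passed in this comparison (edgeR), and 41 had an unadjusted p under 0.05. The 95% intervals ran from -0.19 to 0.13 for Fscn1 and from -0.14 to 0.17 for Lingo1, the 2 widest, so changes of that size are not excluded by these data. The Dox group held 4 mice, and its replicate 4, the only male, was the lowest of the group for all 9 genes.

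After LPS, with upper quartile scaling, all 9 genes were slightly lower in Dox+LPS than in LPS mice, by 0.02 to 0.15 on the log2 scale, and none passed the threshold. This common direction did not hold under every alternative. With the 13 housekeeping genes as scale Nefl was at 0.018 and Syp at 0.0084, and in females alone Mapt (0.09), Nefl (0.15), Syp (0.03) and Fscn1 (0.0072) were above 0. The largest differences were those of Nptx1 (-0.15, unadjusted p = 0.0091, adjusted p = 0.251) and Rbfox3 (-0.14, unadjusted p = 0.0017, adjusted p = 0.188). None of the 770 genes passed here either (edgeR), with 102 at an unadjusted p under 0.05. For the interaction of LPS and dox, 0 of 770 genes passed and 69 had an unadjusted p under 0.05. Besides Rbfox3, Nptx1 came nearest (-0.18, unadjusted p = 0.022, adjusted p = 0.509). Dox+LPS mice took the later lanes (7 to 12) of the cartridge that they shared with LPS mice (lanes 1 to 6), and Dox mice the later lanes (9 to 12) of the cartridge shared with Untreated mice (lanes 1 to 8), so lane and dox cannot be told apart.

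Female and male mice did not differ in these genes beyond the threshold, with log2 fold changes (female against male, group as a covariate) between -0.04 and 0.06. In the panel, 0.519% of genes passed. A test of whether the LPS response differed between the sexes was added after the values had been seen. The female minus male difference in the log2 fold change with LPS was below 0 for all 9 genes, from -0.04 for Nefl to -0.33 for Fscn1. It did not pass the threshold for any of them or for any of the 770 genes (edgeR, lowest adjusted p among the 9 of 0.287, 64 of 770 genes at an unadjusted p under 0.05). The direction of this difference over the other panel genes is not given here, so it is not shown to be particular to these 9.

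Within groups, the 9 genes varied together to unequal degrees. After each group mean was taken off, the correlation of log2 counts over 23 mice had a median of 0.47 over the 36 pairs of genes, from 0.05 for Nefl and Nptx1 to 0.88 for Fscn1 and Lingo1. These are descriptions, and the 2 genes of a pair share the library and scaling factor of each mouse. Pairs of other panel genes are not given for comparison. Of 563 other panel genes above background in every mouse, Pacsin1, which acts in vesicle endocytosis, had the pattern most like the mean of the 9 genes over all 23 mice and also after group means were taken off. Within the 11 LPS-injected mice its r was 0.83 and within the 12 saline-injected mice 0.93. Slc17a7 was higher within LPS-injected mice (0.85) and Clstn1 within saline-injected mice (0.96). Over all 23 mice Nlgn2, an adhesion protein of inhibitory synapses, and Prkar1a, a regulatory subunit of protein kinase A, came next, with r = 0.73 and 0.69 in LPS-injected mice and 0.84 and 0.74 in saline-injected mice. With group means taken off, Slc17a7, the vesicular glutamate transporter VGLUT1, and Clstn1, a calsyntenin that acts in vesicle transport along axons, both followed Pacsin1 (0.86) with r = 0.83.

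Other neuronal genes of the panel were counted in 4 lists, and how many passed depended on the scaling. The lists go by gene name, and which cells of the cortex carried a transcript was not measured. Over the 7 scalings, the share of all panel genes that were lower ran from 10.4% to 29.1% in LPS against Untreated and from 9.74% to 31.3% in Dox+LPS against Dox. In a list of 11 other genes of the neuronal cytoskeleton, axon and adhesion, 8 fell and 1 rose in LPS against Untreated (median -0.23), and 8 fell and 1 rose in Dox+LPS against Dox (median -0.28), with upper quartile scaling. Over the 7 scalings, 4 to 8 fell in each comparison, 1 rose in LPS against Untreated and 1 to 2 rose in Dox+LPS against Dox. Chn2, a GTPase activating protein for Rac, fell by 0.47 and 0.49 on the log2 scale, Stmn1, which destabilizes microtubules, by 0.35 and 0.50, and Fgf13, an intracellular FGF that binds sodium channels, by 0.28 and 0.39, each in LPS against Untreated and then in Dox+LPS against Dox. All 3 passed under each of the 7 scalings. Here and in the other neuronal lists, the 3 genes of smallest p in LPS against Untreated were named. Passing in that comparison therefore partly followed from the choice. The gene that rose was Islr2 in LPS against Untreated (0.27, adjusted p = 0.00116, edgeR) and Amigo2 in Dox+LPS against Dox (0.81, adjusted p = 1.87e-05, edgeR), both leucine-rich repeat membrane proteins, named because they were single. Whether neurons or glia carried these rises was not tested.

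Of 8 presynaptic and vesicle genes, 5 fell in LPS against Untreated (median -0.18) and 6 in Dox+LPS against Dox (median -0.25), and none rose. Over the 7 scalings, 1 to 5 fell in LPS against Untreated, and 2 to 6 fell and 0 to 1 rose in Dox+LPS against Dox. Pacsin1 fell by 0.40 and 0.50, the synapsin Syn2 by 0.23 and 0.28 and the liprin Ppfia4 by 0.36 and 0.30 on the log2 scale. Pacsin1 passed under all 7 scalings in both comparisons, whereas Syn2 passed under 6 and 5 and Ppfia4 under 6 and 3. Of 20 postsynaptic and signalling genes, 13 fell and 1, the glutamate receptor subunit Gria1 (0.10), rose in LPS against Untreated (median -0.19), and 19 fell in Dox+LPS against Dox (median -0.25). Over the 7 scalings, 5 to 13 fell and 1 to 3 rose in LPS against Untreated, and 6 to 19 fell and 0 to 1 rose in Dox+LPS against Dox. The scaffold gene Homer1 had 3169 to 3652 normalized counts in LPS mice, against 4545 to 6744 in Untreated mice, and 2832 to 3159 in Dox+LPS mice, against 4707 to 5780 in Dox mice (log2 fold changes -0.72 and -0.79). Shank3, another scaffold (-0.48 and -0.44), and the metabotropic glutamate receptor Grm3 (-0.51 and -0.62) fell with it under all 7 scalings. Whether Grm3 fell in neurons or in glia was not tested. Of 5 neuronal transcription factors only Mef2c fell, by 0.15 in LPS against Untreated and by 0.39 in Dox+LPS against Dox, and in LPS against Untreated it passed under 3 of 7 scalings. Tbr1 (-0.08 and -0.19) and Dlx2 (-0.08 and -0.04) did not pass.

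Markers of other cell types moved as well. All 17 oligodendrocyte markers fell in both comparisons (medians -0.61 in LPS against Untreated and -0.57 in Dox+LPS against Dox), and at least 13 of 17 did so under each of the 7 scalings. Their summed normalized counts were 21332 to 27113 in Dox+LPS mice and 20496 to 23629 in LPS mice, against 33697 to 35772 in Dox mice and 30675 to 37843 in Untreated mice. Lingo1, which oligodendrocytes also express, fell beside them. All 3 neutrophil genes, 1 of which was at or under background in all mice, rose in both comparisons under each of the 7 scalings, with sums of 235 to 313 in Dox+LPS mice and 137 to 283 in LPS mice, against 75.7 to 106 in Dox mice and 78.6 to 125 in Untreated mice. Of 13 T, B and NK cell genes, 10 were at or under background in all mice. None of the 13 passed with upper quartile scaling, and 2 passed as higher in LPS against Untreated under total count, 11 housekeeping gene and positive control scaling. With upper quartile scaling, 3 of 7 astrocyte markers fell and 2 rose, and 6 of 11 microglia markers fell and 3 rose, in each comparison. Over the 7 scalings, 1 to 3 astrocyte markers fell and 2 to 4 rose, and 4 to 6 microglia markers fell. Of 7 endothelial markers, 4 to 5 rose in LPS against Untreated and 5 rose in Dox+LPS against Dox under these scalings, and 1 fell in LPS against Untreated with upper quartile scaling. The part of these cell types in the change of the 9 genes was not tested.

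**Figure D5:**
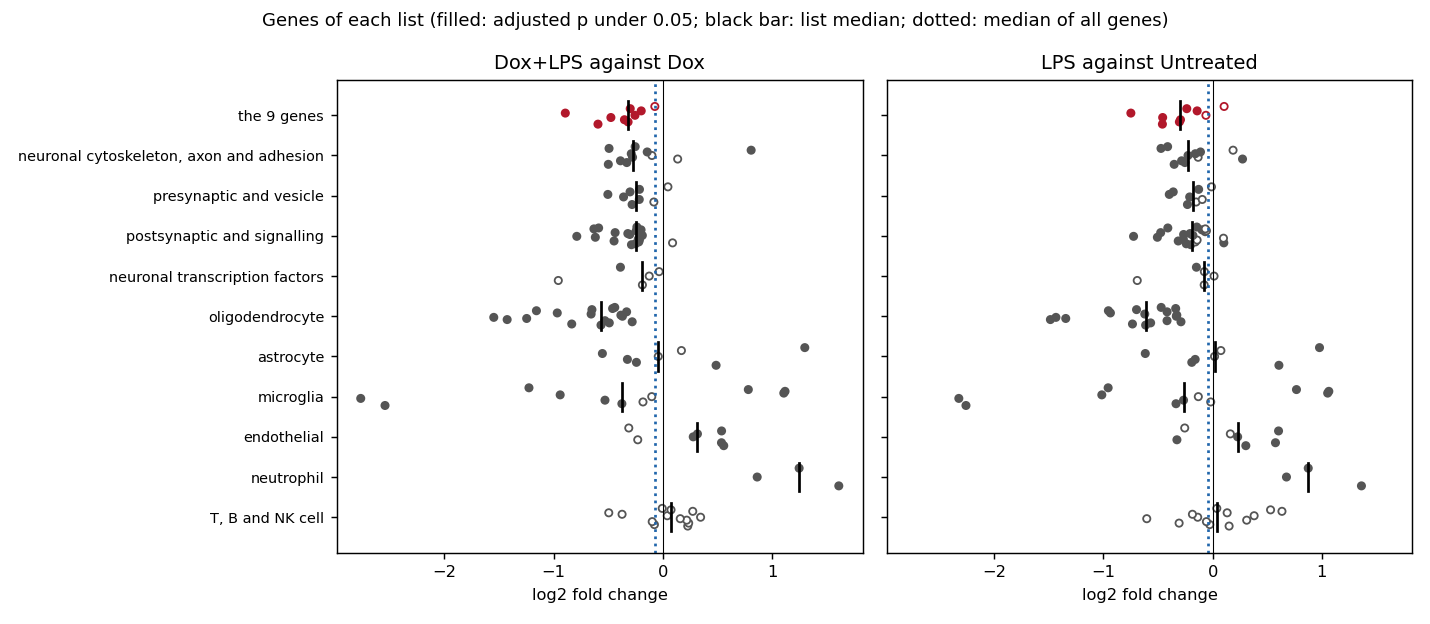
Log2 fold change of each gene (points, filled where the adjusted p is under 0.05) in the 9 genes, 4 lists of other neuronal genes and 6 lists of markers of other cell types, in Dox+LPS against Dox (left) and LPS against Untreated (right). Black bars mark the median of each list and the dotted line that of all 770 genes. The median of the 9 genes (-0.32 and -0.29) lies below that of all genes (-0.07 and -0.04), and that of the oligodendrocyte list lies lower (-0.57 and -0.61).

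With each mouse left out in turn, 7 to 8 of the 9 genes passed in LPS against Untreated and 8 in Dox+LPS against Dox. In the fit of all 23 mice, 51.9% and 56% of the 770 panel genes passed, in the same order. Without the 3 Untreated mice that the labels number in a different range from all others, 7 and 8 of the 9 genes passed. Without both LPS replicate 3 and Untreated replicate 3, the numbers were 7 in LPS against Untreated and 8 in Dox+LPS against Dox. The log2 fold change of Lingo1 ranged from -0.78 to -0.71 in LPS against Untreated and from -0.96 to -0.83 in Dox+LPS against Dox with 1 mouse left out. In 2 of these 23 fits, those without LPS replicate 2 and without LPS replicate 5, Nptx1 passed as higher in LPS than in Untreated mice (up to 0.13).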

How the data were processed

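Cortical RNA of 23 mice was hybridized to the nCounter panel for mouse neuroinflammation (757 endogenous and 13 housekeeping genes, 6 positive and 8 negative control probes). The authors deposited whole counts per probe as exported, named here as estimated counts only since some header entries above them are decimal numbers. There, 1 further column matched no labelled mouse and was not used here. A processed table, whose log2 values have rank 6 over 23 mice as fitted values of a model do, was not used. The study's methods name edgeR 3.38.4, upper quartile scaling, RUVg and the likelihood ratio test.

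The labels gave the groups, and replicate numbers are those of the order of the records. Counts of 770 genes without a filter were scaled (upper quartile) and tested by the two-sided quasi-likelihood test of edgeR 4.0.16 (R 4.3.3) in 1 fit with a mean per group, with Benjamini-Hochberg adjustment over all genes and a threshold of 0.05. Alternatives were 7 other scalings, the likelihood ratio test, 1 RUVg factor computed from its description, DESeq2 1.42.0, limma-voom (limma 3.58.1), a filter on low counts, background subtraction, a fold threshold, sex as a covariate or each sex alone, and mice left out. The test was tried on simulated data before use. Intervals cover the spread between mice.

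All 9 genes were named, with the 3 genes of smallest p in LPS against Untreated from each neuronal list and the 3 most correlated genes by each of 2 measures. The genes, lists and rules were chosen with earlier results of these data known. Motifs were searched in RefSeq promoters with Python scripts.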

Additional observations from a re-analysis of the deposited data

Results flagged for a closer look

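In the LPS group, Tubb3 of replicate 3 had 4540 normalized counts, against 3872 to 4049 in the other 4 mice, and the gap to the nearest of them was 0.735 of the whole range of the group, above the limit of 0.71 for 5 samples. It was still below every Untreated mouse. It was 1 of 36 combinations of gene and group looked at, and chance marks about 1 in 20 of them.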

How the results depend on the processing

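In the comparisons by dox, in their interaction with LPS and between the sexes, none of the 9 genes passed under any alternative. With the fold threshold added, 1 gene remained in LPS against Untreated and 2 in Dox+LPS against Dox. In Dox+LPS against Dox, 4 genes passed, all lower, with the 13 housekeeping genes as scale, where 41.7% of the panel passed (9.74% lower). In males alone 4 passed, all lower, beside 23.9% of the panel (80 genes lower and 104 higher), and the Dox group then has 1 mouse, whose spread is assumed to be that of the other groups. With the mean of the 9 genes as scale, which by its construction sets their average change near 0, Rbfox3 (0.23), Syp (0.15) and Rab6b (0.0523) turned above 0 in LPS against Untreated. So did Mapt (0.0669), Nefl (0.0362), Rbfox3 (0.13), Syp (0.19), Rab6b (0.0872) and Nptx1 (0.31) in Dox+LPS against Dox. Females alone gave 8 genes, all lower, in LPS against Untreated, with Rbfox3 at -0.17, beside 45.3% of the panel (210 genes lower and 139 higher). They gave 9, all lower, in Dox+LPS against Dox, with Nptx1 at -0.16, beside 49.6% of the panel (216 lower and 166 higher). The fit of females rests on 2 mice each in LPS and Untreated and 3 each in Dox+LPS and Dox. Leaving out each mouse in turn gave 7 to 8 and 8 genes in that order, beside 51.9% and 56% of the panel with all mice. No paired analysis was possible because replicate numbers follow the order of the records and the labels give each mouse only a number of its own. Counting error is small for these genes, so the number of mice and the scale set the precision.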
